A study of Homo sapiens with 42 samples.

Results

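The centromere and kinetochore genes described here encode the protein assembly that joins each chromosome to the spindle, and they were followed in A375 cells, an established human melanoma line, through siRNA knockdown and drug treatment. A list of 37 genes was taken, and 36 of them were measured among the 19775 genes of the array table, each through its single-symbol probe set with the highest mean log2 signal over all 42 arrays. CENPP had only a probe set that also carries another symbol and was not analysed here. Cells were transfected with an siRNA for 48 h and then exposed for 26 h to a drug or to vehicle. The BRCA1 siRNA cells and the CDT1 siRNA cells each had a group with 650 nM MLN4924 and a group with 0.065% DMSO, the vehicle. The p53 siRNA cells had 650 nM MLN4924, 5 µM Nutlin, 100 nM Daunorubicin and DMSO, the last as a first and a second set of arrays, and the cells with GL2 siRNA, the control of the study, had the same 5 groups. Each of the 14 groups held 3 arrays. The labels do not say that the 3 came from separate cultures, so every p-value measures only the spread between these samples, and 1 cell line stands behind all values.

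Kinetochores are built on centromeric chromatin marked by the histone H3 variant CENP-A. An inner network of CENP proteins sits on that chromatin through the cell cycle, and in mitosis it carries the microtubule-binding KNL1, MIS12 and NDC80 assemblies, the SKA complex and an outer corona that feeds the spindle checkpoint. Many of these genes are transcribed mainly in late S phase, G2 and mitosis, in part through CHR promoter elements bound by the DREAM complex, which acts downstream of p53 and p21. MLN4924 blocks the enzyme that starts NEDD8 conjugation, on which cullin-RING ubiquitin ligases depend, Nutlin frees p53 from MDM2, and daunorubicin is an anthracycline that damages DNA through topoisomerase II. In bulk RNA, fewer mitotic or cycling cells and less RNA per cell cannot be told apart.

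Promoter sequences were at hand for 29 of the 36 measured genes in RefSeq (GRCh38.p14), each covering 250 bases before the annotated start and 50 after it. Those of NUF2 and HJURP are shown because these genes had the most negative fitted changes with Nutlin in GL2 siRNA cells, and those of CENPT and ZW10 because theirs were nearest to 0. Capitals mark the motifs searched, on both strands: TTTGAA or else TTCGAA for CHR, CCAAT, and any of TTCCCGC or else TTGGCGC or else TTCGCGC or else TTGCCGC as E2F-like. Overlapping matches run together. The windows are given 5′ to 3′ on the strand of the gene.
NUF2, chr1:163321704-163322003, plus strand: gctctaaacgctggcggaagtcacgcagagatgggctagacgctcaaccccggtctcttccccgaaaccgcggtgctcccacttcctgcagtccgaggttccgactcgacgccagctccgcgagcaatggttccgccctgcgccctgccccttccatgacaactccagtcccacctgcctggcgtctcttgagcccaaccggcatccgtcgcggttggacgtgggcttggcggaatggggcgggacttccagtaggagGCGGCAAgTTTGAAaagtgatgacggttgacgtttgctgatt
HJURP, chr2:233854486-233854785, minus strand: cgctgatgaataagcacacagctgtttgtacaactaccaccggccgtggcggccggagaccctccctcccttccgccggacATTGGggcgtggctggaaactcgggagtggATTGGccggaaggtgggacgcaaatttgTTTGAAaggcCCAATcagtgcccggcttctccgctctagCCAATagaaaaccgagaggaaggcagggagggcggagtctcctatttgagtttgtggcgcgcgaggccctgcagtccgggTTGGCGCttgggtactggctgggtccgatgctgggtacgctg
CENPT, chr16:67847644-67847943, minus strand: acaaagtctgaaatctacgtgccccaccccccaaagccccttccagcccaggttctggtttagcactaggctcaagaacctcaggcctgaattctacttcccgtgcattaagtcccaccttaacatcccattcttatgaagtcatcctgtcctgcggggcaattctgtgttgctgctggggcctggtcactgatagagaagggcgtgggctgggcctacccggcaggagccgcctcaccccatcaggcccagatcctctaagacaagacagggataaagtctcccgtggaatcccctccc
ZW10, chr11:113773643-113773942, minus strand: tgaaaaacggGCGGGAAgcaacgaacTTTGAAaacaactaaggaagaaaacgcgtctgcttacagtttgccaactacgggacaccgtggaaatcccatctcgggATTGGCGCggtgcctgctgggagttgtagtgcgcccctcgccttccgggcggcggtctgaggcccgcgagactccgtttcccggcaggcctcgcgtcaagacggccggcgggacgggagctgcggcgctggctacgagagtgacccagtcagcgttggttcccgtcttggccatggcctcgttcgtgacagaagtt

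A CHR match lay in 16 of the 29 promoters (55.2%), against 16.7% of the 27305 promoters of the table taken 1 per gene. CCAAT lay in 19 of them (65.5%), against 35.7% of all promoters. An E2F-like match lay in 15 (51.7%), against 13% of all promoters. The CENPT window held none of these letters, whereas the ZW10 window held 1 CHR, 1 CCAAT and 2 E2F-like matches, with its CHR match starting 224 bases before the annotated start. NUF2 had its CHR match 16 bases after the start and HJURP 111 bases before it. These are letter matches within a window and not bound sites.

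All levels below are log2 of the deposited signal less the log2 signal of the median gene on the same array, so that 0 is the level of that median gene. A change is the difference of group means on this scale from a limma fit over all genes and all 14 groups, given with its SE. Nutlin and daunorubicin were set against the first DMSO set of the same siRNA, MLN4924 in p53 and GL2 siRNA cells against the mean of both sets, and MLN4924 in CDT1 and BRCA1 siRNA cells against their own DMSO group. A gene was called where its Benjamini-Hochberg adjusted p was under 0.05 and the change was at least 1.5-fold. The array medians ranged from 5.63 to 6.35 log2 units. CDT1 read 0.45 to 0.71 in CDT1 siRNA cells under DMSO, against 2.51 to 3.11 in GL2 siRNA cells under DMSO. BRCA1 read -0.23 to -0.07 in BRCA1 siRNA cells under DMSO, against 2.47 to 2.90 in the GL2 cells. CDKN1A, which encodes the cell cycle inhibitor p21, read 0.43 to 1.52 in p53 siRNA cells under DMSO, against 2.95 to 3.20 in GL2 cells. The melanocyte markers MITF, SOX10, S100A1 and RAB27A lay above the median signal on all 42 arrays, S100B on 40 and TYR on 21, while PMEL, MLANA and TYRP1 did so on 4, 2 and 1 arrays. Of the epithelial markers, CDH1 and KRT19 lay above it on none, EPCAM on 5, CLDN4 on 15, KRT5 on 21 and KRT14 on all 42. Of the fibroblast markers, PDGFRA lay above it on none, COL1A2 on 9, and DCN, LUM and COL1A1 on all 42. Of the leukocyte markers, PTPRC and CD14 lay above it on none, CD3E on 11 and ITGAM on 36.

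3 libraries stood apart. The library labelled GL2 MLN4924 3 read -1.35 for BRCA1 where the other arrays of its group read 1.90 and 2.18, and the library labelled BRCA1 MLN4924 3 read 2.12 where the others read -1.13 and -0.78, so that BRCA1 goes against both labels. The kinetochore genes split in the same way. The library labelled GL2 MLN4924 3 lay below both other arrays of its group in 35 of the 36 genes, and the library labelled BRCA1 MLN4924 3 lay above both others in all 36. The median absolute difference over the 36 genes was 0.185 and 0.135 between the library labelled GL2 MLN4924 3 and those labelled BRCA1 MLN4924 1 and 2, but 0.867 and 0.878 to those labelled GL2 MLN4924 1 and 2. For the library labelled BRCA1 MLN4924 3 it was 0.113 and 0.110 to those labelled GL2 MLN4924 1 and 2, but 0.753 and 0.865 to those labelled BRCA1 MLN4924 1 and 2. In p53 Daunorubicin 1 the 5′ to 3′ signal ratio was 0.0118 for actin and 0.0509 for GAPDH, against 0.65 to 0.94 and 0.99 to 1.19 on the other 41 arrays, and it lay above both other arrays of its group in 27 of the 36 genes. Results that rest on these libraries are given with and without all 3 in many places, but not in every one.

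**Figure D1:**
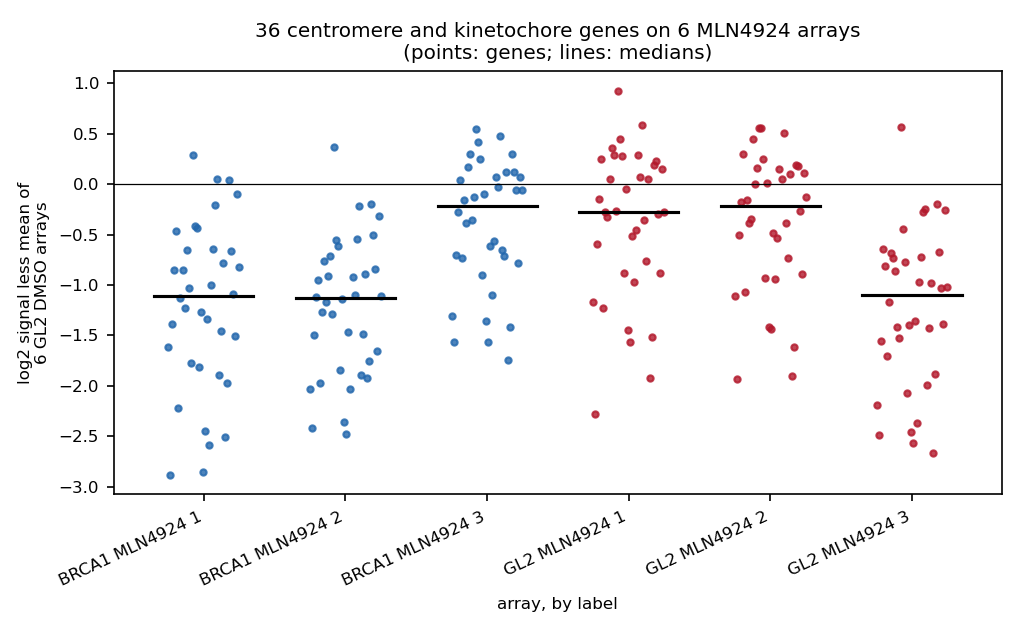
Each point is 1 of 36 centromere and kinetochore genes on 1 MLN4924 array of the BRCA1 siRNA (left) and GL2 siRNA (right) groups, as log2 signal less the mean of the 6 GL2 DMSO arrays, and lines are medians. The median was -1.11, -1.13 and -0.22 on the libraries labelled BRCA1 MLN4924 1, 2 and 3, and -0.27, -0.22 and -1.10 on those labelled GL2 MLN4924 1, 2 and 3.

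Kinetochore genes fell together when Nutlin or daunorubicin was given to GL2 siRNA cells. With Nutlin 34 of the 36 were called lower, where 9.67% of all 19775 genes were called lower, and the median change was -2.75 over the 36 against 0.01 over all genes. With daunorubicin 32 were called lower, where 9.93% of all genes were, at a median of -2.41 against -0.01. In p53 siRNA cells Nutlin left none of the 36 called in either direction (0.0556% of all genes were called). The changes ran from -0.53 to 0.09, 33 of them below 0, at a median of -0.26 against -0.06 over all genes. An unadjusted p under 0.05 in limma was found for 4, and 2 were called lower against the second DMSO set. CDKN1A read 2.82 to 3.44 with Nutlin in these cells, against 0.89 to 1.52 in their first DMSO set. Daunorubicin in p53 siRNA cells called 6 lower and 2 higher, where 6.35% of all genes were called lower and 5.67% higher.

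MLN4924 called fewer of them in GL2 siRNA cells, where 15 were called lower and 1 higher (7.06% of all genes were called lower and 10.2% higher), at a median of -0.51 against 0.08 over all genes. Without the 3 doubted libraries 11 were called lower (7.66% of all genes) and 1 higher, and the median was -0.21. In p53 siRNA cells 14 were called higher and 2 lower, where 17.8% of all genes were called higher and 7.6% lower, at a median of 0.46 against 0.20. In CDT1 siRNA cells 10 were called lower and none higher, where 4.63% of all genes were called lower. In BRCA1 siRNA cells 8 were called lower and 1 higher, where 7.15% of all genes were called lower and 9.79% higher, and without the doubted libraries 13 were called lower (7.4% of all genes) and none higher.

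**Figure D2:**
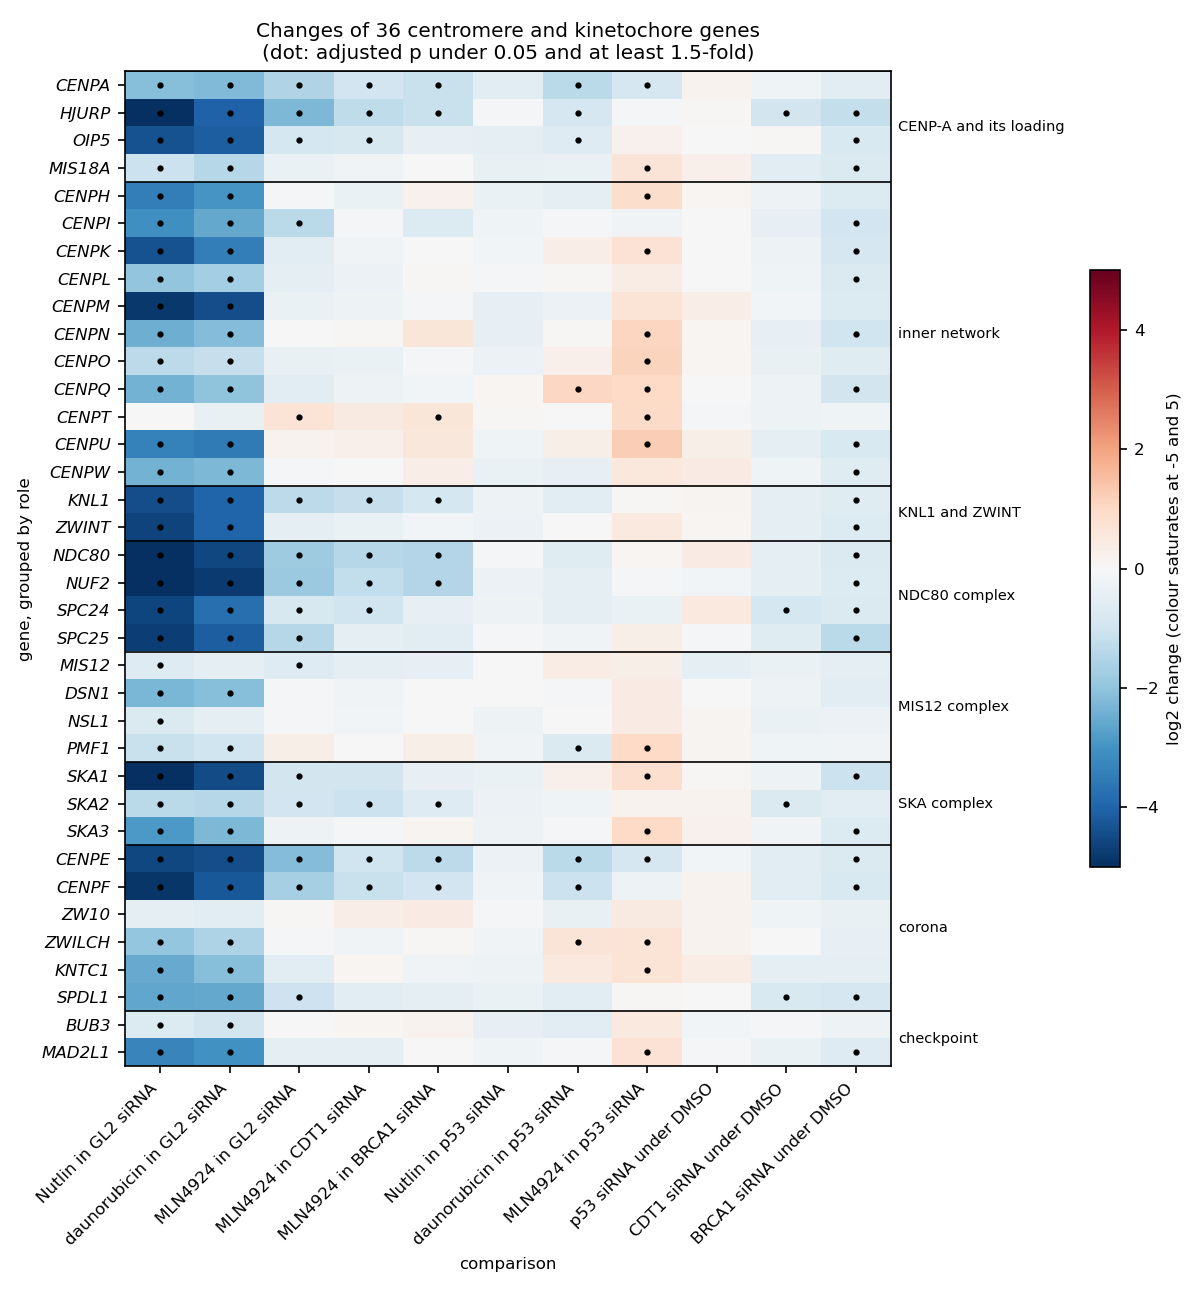
Log2 changes of the 36 genes (down, grouped by role) in 11 comparisons (across), each drug group against its DMSO control and each siRNA against GL2 siRNA under DMSO, with blue lower and red higher and the colour saturating at -5 and 5. Dots mark called genes: 34, 32 and 15 of the lower ones stand under Nutlin, daunorubicin and MLN4924 in GL2 siRNA cells, and no gene is marked under Nutlin in p53 siRNA cells or under p53 siRNA with DMSO.

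CENP-A and the factors that load it were taken first. CENPA encodes the centromeric histone, HJURP its chaperone, and OIP5 and MIS18A encode parts of the Mis18 complex that licenses its deposition. OIP5 read -0.62, -0.77 and -0.67 with Nutlin and -0.60, -0.21 and -0.56 with daunorubicin in GL2 siRNA cells, against 3.68, 3.63 and 3.64 in the first DMSO set. With MLN4924 OIP5 read 3.01, 3.10 and 2.04, against 3.57, 3.53 and 3.57 in the second DMSO set. No Nutlin or daunorubicin array came within 3 log2 units of DMSO, and the third MLN4924 value belongs to the library whose label is in doubt. Under p53 siRNA OIP5 read 2.61, 3.45 and 3.42 with Nutlin, 3.22, 2.84 and 2.90 with daunorubicin and 3.82, 3.78 and 3.85 with MLN4924, against 3.69, 3.62 and 3.60 in the first DMSO set and 3.70, 3.46 and 3.66 in the second. Under CDT1 siRNA OIP5 read 2.92, 2.99 and 2.76 with MLN4924, against 3.69, 3.69 and 3.66 with DMSO, and under BRCA1 siRNA 2.22, 2.11 and 2.90 with MLN4924, against 2.91, 2.80 and 2.78 with DMSO. Daunorubicin arrays of p53 siRNA cells thus lay below DMSO without overlap, and MLN4924 arrays slightly above it. OIP5 fell by 4.34 ± 0.21 with Nutlin in GL2 cells (limma adjusted p = 1.02e-16).

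MIS18A moved less. It read 1.96, 1.99 and 1.90 with Nutlin and 1.90, 1.40 and 1.44 with daunorubicin in GL2 siRNA cells, against 3.03, 3.05 and 2.98 in the first DMSO set. MLN4924 arrays gave 2.98, 2.95 and 2.48, against 3.35, 3.11 and 3.21 in the second DMSO set. Nutlin and daunorubicin arrays lay clear of DMSO, whereas the highest MLN4924 array and the lowest DMSO array differed by less than the rounding shown. Under p53 siRNA MIS18A read 2.84, 3.0 and 2.93 with Nutlin, 3.38, 2.76 and 2.87 with daunorubicin and 3.98, 4.07 and 3.99 with MLN4924, against 3.47, 3.24 and 3.24 in the first DMSO set and 3.53, 3.22 and 3.59 in the second. Under CDT1 siRNA MIS18A read 2.28, 2.59 and 2.41 with MLN4924, against 2.55, 2.60 and 2.61 with DMSO, and under BRCA1 siRNA 2.27, 2.00 and 2.85 with MLN4924, against 2.37, 2.62 and 2.24 with DMSO. All MLN4924 arrays of p53 siRNA cells lay above DMSO, and MIS18A rose by 0.63 ± 0.15 there (limma adjusted p = 0.000925). With Nutlin in GL2 cells it fell by 1.07 ± 0.17, although a further, dimmer probe set of this gene gave -3.87.

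HJURP fell to signals far below the median gene with Nutlin. It read -1.84, -3.26 and -2.88 with Nutlin in GL2 siRNA cells, against 2.81, 2.93 and 2.91 with DMSO, a fitted fall of 5.54 ± 0.28, whose size is uncertain at signals this dim. It was also the gene of the 36 with the most negative change with MLN4924 in GL2 siRNA cells, where it read 0.62, 0.96 and 0.41, against 2.80, 2.94 and 2.99 in the second DMSO set, and this change was -2.23 ± 0.24 and -2.10 without the doubted libraries. CENPA fell by only 2.13 ± 0.22 with Nutlin in GL2 cells, but it was called lower in 7 of the 8 drug comparisons, all but Nutlin in p53 siRNA cells. CENPA read 1.70, 1.50 and 1.59 with MLN4924 and 0.95, 1.21 and 0.87 with daunorubicin in p53 siRNA cells, against 2.22 to 2.53 in the first DMSO set and 2.51 to 2.56 in the second. Its changes there were -0.85 ± 0.19 and -1.35 ± 0.22 (limma adjusted p = 0.000574 and 5.5e-05), and no array overlapped DMSO. The CENPA probe set is of a kind that can bind related transcripts.

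The inner network, which holds CENP-A nucleosomes and carries the outer layers, had 11 measured genes. With Nutlin in GL2 siRNA cells 10 were called lower, between -1.30 (CENPO) and -4.81 (CENPM). CENPK, which works with CENPH, CENPI and CENPM, read -0.81, -0.18 and -0.27 with Nutlin and 0.46, 0.55 and 0.48 with daunorubicin, against 4.02, 3.95 and 3.89 in the first DMSO set. With MLN4924 CENPK read 3.82, 3.93 and 2.92, against 4.38, 4.14 and 4.15 in the second. Nutlin arrays lay lowest and the daunorubicin arrays just above them. Under p53 siRNA CENPK read 4.07, 3.97 and 3.88 with Nutlin, 4.94, 4.22 and 4.17 with daunorubicin and 4.79, 4.92 and 4.84 with MLN4924, against 4.06, 4.20 and 4.11 in the first DMSO set and 4.34, 3.83 and 4.12 in the second. Under CDT1 siRNA CENPK read 3.67, 3.67 and 3.58 with MLN4924, against 3.83, 3.73 and 3.92 with DMSO, and under BRCA1 siRNA 2.96, 2.82 and 3.93 with MLN4924, against 3.31, 3.41 and 3.09 with DMSO. CENPK fell by 4.37 ± 0.23 with Nutlin in GL2 cells (limma adjusted p = 1.08e-15) and rose by 0.74 ± 0.20 with MLN4924 in p53 siRNA cells.

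CENPT, which reaches from the chromatin to the NDC80 complex, was the exception of the network. It read 0.50, 0.70 and 0.63 with Nutlin and 0.17, 0.58 and -0.04 with daunorubicin in GL2 siRNA cells, against 0.52, 0.61 and 0.68 in the first DMSO set. With MLN4924 CENPT read 1.66, 1.29 and 1.30, against 0.84, 0.81 and 0.94 in the second. The MLN4924 arrays lay above every DMSO array, the library in doubt included, while Nutlin and DMSO overlapped. Under p53 siRNA CENPT read 0.91, 0.82 and 0.61 with Nutlin, 0.61, 0.85 and 0.75 with daunorubicin and 1.73, 1.39 and 1.59 with MLN4924, against 0.73, 0.70 and 0.74 in the first DMSO set and 0.43, 0.45 and 0.66 in the second. Under CDT1 siRNA CENPT read 0.87, 0.76 and 1.10 with MLN4924, against 0.68, 0.36 and 0.36 with DMSO, and under BRCA1 siRNA 1.03, 1.10 and 1.28 with MLN4924, against 0.69, 0.54 and 0.30 with DMSO. MLN4924 arrays were the highest of each siRNA. CENPT rose with MLN4924 by 0.95 ± 0.12 in p53, 0.62 ± 0.14 in BRCA1 and 0.68 ± 0.12 in GL2 siRNA cells, and its change of 0.44 ± 0.14 in CDT1 siRNA cells was under 1.5-fold. At the deposited scaling, without centring, its changes were 0.53 in p53, 0.44 in BRCA1, 0.33 in CDT1 and 0.50 in GL2 siRNA cells, and none was called. Without the doubted libraries the changes were 0.55 in BRCA1 siRNA cells, no longer called, and 0.74 in GL2 siRNA cells. With Nutlin in GL2 cells CENPT changed by 0.01 ± 0.14 (limma adjusted p = 0.974).

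7 of the 11 inner network genes were called higher with MLN4924 in p53 siRNA cells and none lower. Over all genes 17.8% were called higher and 7.6% lower. At the deposited scaling, without centring, 3 of the 11 were called higher, where 5.33% of all genes were. CENPU, of the subcomplex that also holds CENPO and CENPQ, read 5.78, 5.65 and 5.85 with MLN4924, against 4.54, 4.39 and 4.49 in the first DMSO set and 4.65, 4.54 and 4.64 in the second, a rise of 1.22 ± 0.18. CENPO read 2.83, 2.34 and 2.46, against 1.03 to 1.83 on the 6 DMSO arrays, and rose by 1.12 ± 0.23. CENPQ read 2.58, 2.51 and 2.55, against 1.12 to 2.06, and rose by 0.99 ± 0.29. None of the 3 overlapped DMSO. CENPN, which contacts the CENP-A nucleosome, read 5.10, 5.17 and 5.26, against 3.93 to 4.23 with DMSO, and rose by 1.08 ± 0.21. The further CENPN probe sets changed by 0.30, 0.93 and 1.07, from the brightest to the dimmest. CENPH read 4.29, 4.37 and 4.53, against 3.31 to 3.74, and rose by 0.88 ± 0.25. CENPI was the 1 inner network gene called lower with MLN4924 in GL2 siRNA cells, at -1.33 ± 0.28, or -1.15 without the doubted libraries, and it lay below the level of the median gene even under DMSO.

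**Figure D3:**
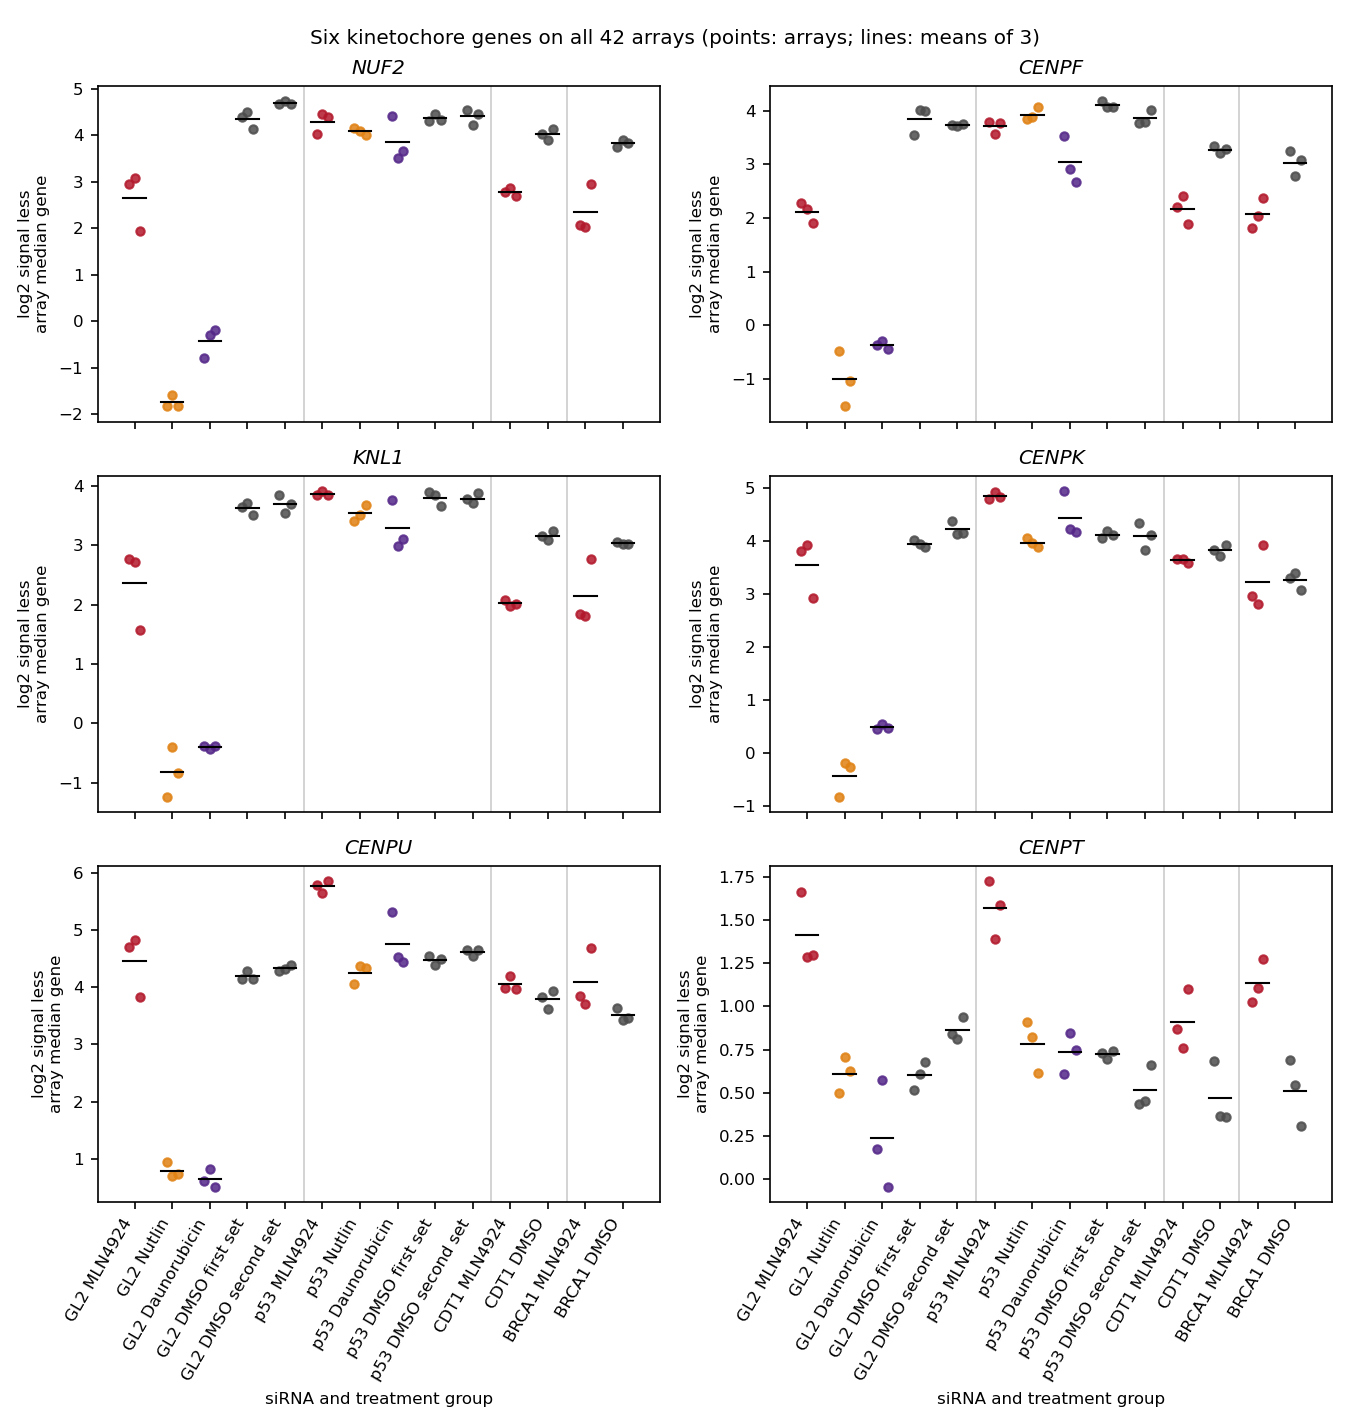
Centred log2 signal of NUF2, CENPF, KNL1, CENPK, CENPU and CENPT on all 42 arrays, by siRNA and treatment, with drug groups left of DMSO sets, points for arrays and lines for means of 3. NUF2 read 4.01 to 4.17 with Nutlin in p53 siRNA cells and -1.83 to -1.57 with Nutlin in GL2 siRNA cells, while CENPT stayed between -0.04 and 1.73 on every array.

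KNL1 is the scaffold to which checkpoint proteins dock, and ZWINT binds it. KNL1 read -1.23, -0.40 and -0.83 with Nutlin and -0.38, -0.42 and -0.39 with daunorubicin in GL2 siRNA cells, against 3.64, 3.71 and 3.50 in the first DMSO set. MLN4924 gave 2.77, 2.72 and 1.58, against 3.85, 3.53 and 3.69 in the second. All 9 drug arrays lay below DMSO. Under p53 siRNA KNL1 read 3.41, 3.51 and 3.68 with Nutlin, 3.76, 2.99 and 3.10 with daunorubicin and 3.84, 3.91 and 3.84 with MLN4924, against 3.89, 3.84 and 3.65 in the first DMSO set and 3.77, 3.71 and 3.87 in the second. Under CDT1 siRNA KNL1 read 2.07, 1.98 and 2.01 with MLN4924, against 3.16, 3.08 and 3.23 with DMSO, and under BRCA1 siRNA 1.85, 1.81 and 2.76 with MLN4924, against 3.06, 3.02 and 3.02 with DMSO. MLN4924 arrays lay below DMSO under CDT1, BRCA1 and GL2 siRNA and overlapped DMSO under p53 siRNA. KNL1 fell with MLN4924 by 1.14 ± 0.23 in CDT1, 0.89 ± 0.23 in BRCA1 and 1.30 ± 0.20 in GL2 siRNA cells (-1.20 in BRCA1 and -0.91 in GL2 siRNA cells without the doubted libraries).

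On the centred scale ZWINT was not called lower with MLN4924 under any siRNA. It read 0.86, 0.39 and 0.62 with Nutlin and 1.14, 1.46 and 1.19 with daunorubicin in GL2 siRNA cells, against 5.21, 5.29 and 5.25 in the first DMSO set. With MLN4924 ZWINT read 5.21, 5.27 and 3.86, against 5.20, 5.27 and 5.33 in the second. Only the library whose label is in doubt lay clearly under DMSO there. The change of -0.48 ± 0.22 was -0.02 without the doubted libraries, and at the deposited scaling it was -0.66 and called lower. Under p53 siRNA ZWINT read 4.83, 5.14 and 5.18 with Nutlin, 5.85, 5.22 and 4.95 with daunorubicin and 5.80, 5.80 and 5.95 with MLN4924, against 5.43, 5.32 and 5.25 in the first DMSO set and 5.43, 5.33 and 5.42 in the second. Under CDT1 siRNA ZWINT read 4.47, 4.60 and 4.38 with MLN4924, against 4.83, 4.75 and 4.86 with DMSO, and under BRCA1 siRNA 3.99, 4.12 and 5.16 with MLN4924, against 4.69, 4.42 and 4.62 with DMSO. KNL1 and ZWINT fell by 4.44 ± 0.23 and 4.63 ± 0.26 with Nutlin in GL2 siRNA cells (limma adjusted p = 1.21e-15 and 5.02e-15).

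The NDC80 complex is the main microtubule coupler, with NDC80 and NUF2 at the microtubule end and SPC24 and SPC25 at the anchoring end. Its 4 genes had the lowest median change of the 8 role groups with Nutlin in GL2 siRNA cells, -5.11. NUF2 read -1.83, -1.57 and -1.81 with Nutlin and -0.79, -0.29 and -0.19 with daunorubicin, against 4.40, 4.50 and 4.14 in the first DMSO set. MLN4924 arrays read 2.95, 3.08 and 1.95, against 4.67, 4.74 and 4.67 in the second. Nutlin took NUF2 below the level of the median gene, a fitted fall of 6.09 ± 0.23 (limma adjusted p = 7.87e-19). With 3 Nutlin arrays under the median signal of the table, 31.9, neither its size nor its rank among such dim genes is well determined. Under p53 siRNA NUF2 read 4.17, 4.09 and 4.01 with Nutlin, 4.42, 3.52 and 3.66 with daunorubicin and 4.04, 4.47 and 4.39 with MLN4924, against 4.31, 4.46 and 4.34 in the first DMSO set and 4.55, 4.23 and 4.47 in the second. Under CDT1 siRNA NUF2 read 2.79, 2.88 and 2.70 with MLN4924, against 4.03, 3.91 and 4.14 with DMSO, and under BRCA1 siRNA 2.07, 2.04 and 2.95 with MLN4924, against 3.76, 3.90 and 3.85 with DMSO. NUF2 fell with MLN4924 by 1.24 ± 0.23 in CDT1, 1.48 ± 0.23 in BRCA1 and 1.86 ± 0.20 in GL2 siRNA cells (-1.78 in BRCA1 and -1.50 in GL2 siRNA cells without the doubted libraries), and its change in p53 siRNA cells was -0.10 ± 0.20.

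SPC24, at the anchoring end, fell by 4.60 ± 0.29 with Nutlin in GL2 siRNA cells, to signals far below the median gene. It read -3.79, -2.46 and -2.14 with Nutlin and -2.22, -1.41 and -2.28 with daunorubicin in GL2 siRNA cells, against 1.76, 1.96 and 1.68 in the first DMSO set. MLN4924 gave 1.35, 1.39 and 0.51, against 1.84, 1.82 and 2.14 in the second. Every drug array lay below DMSO, and the Nutlin arrays were spread over more than 1 log2 unit. Under p53 siRNA SPC24 read 2.22, 1.93 and 2.33 with Nutlin, 2.20, 1.83 and 1.74 with daunorubicin and 2.10, 2.00 and 1.96 with MLN4924, against 2.42, 2.48 and 2.39 in the first DMSO set and 2.33, 2.15 and 2.33 in the second. Under CDT1 siRNA SPC24 read -0.25, -0.24 and 0.47 with MLN4924, against 1.24, 0.73 and 1.05 with DMSO, and under BRCA1 siRNA 0.53, 0.40 and 1.25 with MLN4924, against 1.02, 1.16 and 1.21 with DMSO. With MLN4924 all 4 genes of the complex were called lower in GL2 siRNA cells, and NDC80, NUF2 and SPC25 were also called without the doubted libraries, where SPC24 was at -0.50. None of the 4 was called in p53 siRNA cells.

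The MIS12 complex bridges the inner network to NDC80 and KNL1, and its genes moved least of the role groups with Nutlin in GL2 siRNA cells, at a median of -0.92. DSN1 read -0.20, 0.00 and -0.02 with Nutlin and 0.07, 0.21 and -0.05 with daunorubicin, against 2.23, 2.39 and 2.03 in the first DMSO set. MLN4924 arrays gave 2.70, 2.56 and 1.69, against 2.64, 2.46 and 2.74 in the second. Its Nutlin and daunorubicin arrays lay near the median gene, and it fell by 2.29 ± 0.22 with Nutlin. Under p53 siRNA DSN1 read 2.47, 2.57 and 1.89 with Nutlin, 2.15, 2.15 and 2.42 with daunorubicin and 2.64, 2.84 and 2.88 with MLN4924, against 2.28, 2.32 and 2.27 in the first DMSO set and 2.55, 2.32 and 2.52 in the second. Under CDT1 siRNA DSN1 read 2.27, 1.76 and 1.96 with MLN4924, against 2.09, 2.12 and 2.26 with DMSO, and under BRCA1 siRNA 1.77, 1.32 and 2.48 with MLN4924, against 1.76, 2.10 and 1.73 with DMSO. No MLN4924 change of DSN1 was called.

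MIS12 itself read 2.59, 2.51 and 2.66 with Nutlin and 2.76, 2.67 and 2.76 with daunorubicin in GL2 siRNA cells, against 3.19, 3.27 and 3.19 in the first DMSO set. With MLN4924 MIS12 read 2.71, 2.64 and 2.20, against 3.19, 3.12 and 3.08 in the second. These arrays lay below DMSO by small margins, and the fall of 0.63 ± 0.16 with Nutlin was not called at the deposited scaling (-0.51). The MLN4924 change of -0.65 was called lower, but not without the doubted libraries. Under p53 siRNA MIS12 read 2.70, 2.70 and 2.68 with Nutlin, 3.68, 2.79 and 2.77 with daunorubicin and 2.98, 2.85 and 3.15 with MLN4924, against 2.77, 2.70 and 2.67 in the first DMSO set and 2.73, 2.46 and 2.79 in the second. Under CDT1 siRNA MIS12 read 2.36, 2.45 and 2.29 with MLN4924, against 2.87, 2.80 and 2.84 with DMSO, and under BRCA1 siRNA 2.17, 2.25 and 2.61 with MLN4924, against 2.93, 2.62 and 2.66 with DMSO. The highest daunorubicin value under p53 siRNA came from the array with the low 5′ to 3′ ratios. PMF1, a further subunit, read 3.91, 3.77 and 3.88 with MLN4924 in p53 siRNA cells, against 2.65 to 3.07 on the 6 DMSO arrays, and rose by 1.01 ± 0.16, whereas with daunorubicin it read 1.59, 1.99 and 2.46 and fell by 0.70 ± 0.19. The value of 1.59 came from that same array with the low 5′ to 3′ ratios, and without the doubted libraries the fall was not called. NSL1 fell by 0.72 ± 0.14 with Nutlin in GL2 siRNA cells. Its further probe sets gave -0.54, -0.62 and, for the dimmest, -2.77.

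The SKA complex strengthens the grip on microtubules. SKA1 read -4.50, -3.35 and -4.40 with Nutlin and -4.24, -2.88 and -2.58 with daunorubicin in GL2 siRNA cells, against 1.20, 1.32 and 1.14 in the first DMSO set. MLN4924 gave 1.03, 1.0 and -0.60, against 1.50, 1.59 and 1.59 in the second. SKA1 fell by 5.31 ± 0.37 with Nutlin, and with MLN4924 the call at -0.91 ± 0.32 was lost without the doubted libraries (-0.37). Under p53 siRNA SKA1 read 0.92, 1.45 and 1.38 with Nutlin, 2.12, 1.69 and 1.59 with daunorubicin and 2.60, 1.88 and 2.40 with MLN4924, against 1.74, 1.52 and 1.42 in the first DMSO set and 1.51, 1.07 and 1.54 in the second. Under CDT1 siRNA SKA1 read 0.37, 0.13 and 0.21 with MLN4924, against 1.20, 1.04 and 1.20 with DMSO, and under BRCA1 siRNA -0.50, -0.50 and 0.74 with MLN4924, against 0.02, 0.59 and 0.37 with DMSO. SKA1 rose by 0.83 ± 0.32 with MLN4924 in p53 siRNA cells, and SKA3 rose by 0.99 ± 0.19, reading 3.22, 3.10 and 2.97 with MLN4924 against 1.88 to 2.24 with DMSO.

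SKA2 fell with each of the 3 drugs in GL2 siRNA cells. It read 3.36, 3.41 and 3.37 with Nutlin and 3.43, 3.34 and 3.17 with daunorubicin in GL2 siRNA cells, against 4.74, 4.75 and 4.75 in the first DMSO set. With MLN4924 SKA2 read 4.02, 4.05 and 3.35, against 4.85, 4.76 and 4.85 in the second. The changes were -1.36 ± 0.18, -1.43 ± 0.18 and -0.97 ± 0.15, and the difference between MLN4924 and Nutlin, 0.39 ± 0.20, was not called. Without the doubted libraries the MLN4924 change was -0.75 and its difference from Nutlin, 0.61, was called. Under p53 siRNA SKA2 read 4.49, 4.65 and 4.70 with Nutlin, 5.24, 4.47 and 4.38 with daunorubicin and 5.18, 5.05 and 5.08 with MLN4924, against 4.94, 4.91 and 4.88 in the first DMSO set and 5.06, 4.88 and 5.00 in the second. Under CDT1 siRNA SKA2 read 3.02, 3.02 and 2.91 with MLN4924, against 4.04, 4.04 and 4.09 with DMSO, and under BRCA1 siRNA 3.32, 3.29 and 4.07 with MLN4924, against 4.25, 4.18 and 4.24 with DMSO. It fell with MLN4924 in CDT1 and BRCA1 siRNA cells too, by 1.07 ± 0.18 and 0.66 ± 0.18 (-0.92 in BRCA1 siRNA cells without the doubted libraries).

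The corona holds the kinesin CENPE, the large coiled-coil protein CENPF, the RZZ complex of KNTC1, ZW10 and ZWILCH, and SPDL1, the dynein adaptor Spindly. CENPF read -0.48, -1.52 and -1.04 with Nutlin and -0.37, -0.30 and -0.44 with daunorubicin in GL2 siRNA cells, against 3.54, 4.02 and 3.99 in the first DMSO set. MLN4924 gave 2.27, 2.17 and 1.91, against 3.73, 3.71 and 3.75 in the second. The 3 MLN4924 arrays lay close together here, and the fall of 1.67 ± 0.17 was 1.57 without the doubted libraries. Under p53 siRNA CENPF read 3.85, 3.88 and 4.07 with Nutlin, 3.53, 2.91 and 2.68 with daunorubicin and 3.80, 3.57 and 3.78 with MLN4924, against 4.18, 4.07 and 4.07 in the first DMSO set and 3.78, 3.79 and 4.03 in the second. Under CDT1 siRNA CENPF read 2.21, 2.41 and 1.89 with MLN4924, against 3.34, 3.21 and 3.29 with DMSO, and under BRCA1 siRNA 1.82, 2.04 and 2.37 with MLN4924, against 3.24, 2.78 and 3.07 with DMSO. CENPF was called lower in 6 of the 8 drug comparisons, with daunorubicin in p53 siRNA cells among them (-1.07 ± 0.20).

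CENPE matched CENPA in being called lower in 7 of the 8. It read 1.77, 1.59 and 1.81 with MLN4924 and 1.84, 1.23 and 1.0 with daunorubicin in p53 siRNA cells, against 2.90, 2.59 and 2.58 in the first DMSO set and 2.25, 2.36 and 2.72 in the second. Its changes there were -0.85 ± 0.18 and -1.34 ± 0.21 (limma adjusted p = 0.000372 and 3.46e-05), without overlap with DMSO. After HJURP it had the largest fall of the 36 with MLN4924 in GL2 siRNA cells, at -2.17 ± 0.18, or -1.92 without the doubted libraries.

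ZW10 was the 1 gene of the 36 called in none of the 8 drug comparisons. It read 2.53, 2.44 and 2.59 with Nutlin and 2.49, 2.40 and 2.27 with daunorubicin in GL2 siRNA cells, against 2.89, 2.98 and 3.02 in the first DMSO set. With MLN4924 ZW10 read 3.07, 3.07 and 2.68, against 2.84, 2.68 and 2.85 in the second. The Nutlin and daunorubicin arrays did lie below DMSO, by 0.44 ± 0.14 and 0.57 ± 0.14, which is under 1.5-fold. Under p53 siRNA ZW10 read 2.62, 3.03 and 3.30 with Nutlin, 2.65, 2.59 and 2.71 with daunorubicin and 3.50, 3.51 and 3.42 with MLN4924, against 2.94, 2.94 and 3.20 in the first DMSO set and 3.09, 3.0 and 3.06 in the second. Under CDT1 siRNA ZW10 read 2.91, 3.19 and 2.84 with MLN4924, against 2.57, 2.60 and 2.77 with DMSO, and under BRCA1 siRNA 2.91, 2.69 and 3.18 with MLN4924, against 2.60, 2.34 and 2.60 with DMSO. Its RZZ partners ZWILCH and KNTC1 fell by 1.95 ± 0.20 and 2.52 ± 0.22 with Nutlin in GL2 siRNA cells. Both rose with MLN4924 in p53 siRNA cells, where ZWILCH read 4.33, 4.24 and 4.33 against 3.55 to 3.68 with DMSO, and KNTC1 read 3.38, 2.89 and 3.04 against 2.29 to 2.56. These rises were 0.68 ± 0.17 and 0.69 ± 0.19.

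MAD2L1 encodes MAD2 and BUB3 the adaptor of BUB1 and BUBR1 in the spindle checkpoint. MAD2L1 read 2.17, 1.94 and 2.20 with Nutlin and 2.27, 2.55 and 2.28 with daunorubicin in GL2 siRNA cells, against 5.32, 5.41 and 5.48 in the first DMSO set. MLN4924 gave 5.22, 5.36 and 4.47, against 5.59, 5.56 and 5.59 in the second. The 6 Nutlin and daunorubicin arrays lay more than 2.5 log2 units under DMSO. Under p53 siRNA MAD2L1 read 4.96, 5.32 and 5.30 with Nutlin, 5.72, 5.15 and 5.07 with daunorubicin and 6.03, 6.12 and 6.20 with MLN4924, against 5.47, 5.38 and 5.39 in the first DMSO set and 5.48, 5.21 and 5.46 in the second. Under CDT1 siRNA MAD2L1 read 4.68, 4.80 and 4.52 with MLN4924, against 5.22, 4.98 and 5.24 with DMSO, and under BRCA1 siRNA 4.67, 4.38 and 5.43 with MLN4924, against 5.04, 4.77 and 4.78 with DMSO. It fell by 3.30 ± 0.20 with Nutlin in GL2 siRNA cells and rose by 0.72 ± 0.17 with MLN4924 in p53 siRNA cells.

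BUB3 read 4.72, 4.86 and 4.83 with Nutlin and 4.68, 4.53 and 4.52 with daunorubicin in GL2 siRNA cells, against 5.43, 5.42 and 5.60 in the first DMSO set. With MLN4924 BUB3 read 5.72, 5.69 and 5.32, against 5.59, 5.65 and 5.75 in the second. It fell by 0.68 ± 0.14 and 0.91 ± 0.14 with Nutlin and daunorubicin, and the Nutlin call was lost at the deposited scaling (-0.56). Under p53 siRNA BUB3 read 4.61, 5.14 and 5.06 with Nutlin, 5.19, 4.72 and 4.50 with daunorubicin and 5.94, 5.97 and 5.92 with MLN4924, against 5.45, 5.31 and 5.29 in the first DMSO set and 5.54, 5.58 and 5.48 in the second. Under CDT1 siRNA BUB3 read 5.57, 5.64 and 5.47 with MLN4924, against 5.46, 5.44 and 5.49 with DMSO, and under BRCA1 siRNA 5.48, 5.26 and 5.65 with MLN4924, against 5.24, 5.20 and 5.47 with DMSO. Its changes in p53 siRNA cells, -0.54 ± 0.14 with daunorubicin and 0.50 ± 0.12 with MLN4924, were under 1.5-fold, but without the doubted libraries the daunorubicin change was -0.74 and was called lower.

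The genes not yet described with Nutlin in GL2 siRNA cells were all called lower. NDC80 read -2.63, -3.12 and -2.71 with Nutlin and -2.01, -1.51 and -2.03 with daunorubicin, against 2.75, 2.72 and 2.65 in the first DMSO set, changes of -5.53 ± 0.27 and -4.56 ± 0.27. SPC25, its anchoring partner, changed by -4.69 ± 0.30 with Nutlin and -4.12 ± 0.30 with daunorubicin. Both were called lower. CENPM, of the inner network, read -4.06, -3.92 and -2.74 with Nutlin, against 1.12, 1.46 and 1.15 with DMSO, and fell by 4.81 ± 0.39. CENPW, the histone-fold partner of CENPT, read 0.95, 1.02 and 0.85, against 3.38, 3.28 and 3.24, and fell by 2.36 ± 0.21, so that the partners differed in their calls. CENPL, which pairs with CENPN, fell by 1.98 ± 0.22, and CENPN by 2.45 ± 0.24. CENPH and CENPI, of the subcomplex of CENPK, fell by 3.44 ± 0.29 and 3.06 ± 0.33. CENPU and CENPQ, which rose with MLN4924 in p53 siRNA cells, fell by 3.39 ± 0.21 and 2.37 ± 0.34 with Nutlin in GL2 siRNA cells. SPDL1 fell by 2.61 ± 0.21 with Nutlin and by 1.05 ± 0.18 with MLN4924 in GL2 siRNA cells, where the MLN4924 change was -0.88 without the doubted libraries. SKA3 and PMF1 fell by 2.88 ± 0.22 and 1.11 ± 0.19 with Nutlin.

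The 3 drugs were then set against each other in GL2 siRNA cells. The change with MLN4924 was above that with Nutlin, and called so, in 33 of the 36 genes, where 17% of all genes were called higher in this difference, and the median difference was 2.33. MIS12, SKA2 and ZW10 were the 3 not called, and the count was 27 at the deposited scaling and 35 without the doubted libraries. The Nutlin and daunorubicin changes, which share their DMSO set, differed for 4 genes, all less negative with daunorubicin, where 1.22% of all genes were called higher in this difference. These were HJURP at 1.52 ± 0.28, NUF2 at 1.31 ± 0.23, NDC80 at 0.97 ± 0.27 and CENPK at 0.91 ± 0.23. With Nutlin all 4 lay below the median gene, where signals are dim, and 9 of the 36 genes lay under the median signal of the table with Nutlin and 7 with daunorubicin. Leaving out any 1 daunorubicin array of GL2 siRNA cells left 2 called.

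**Figure D4:**
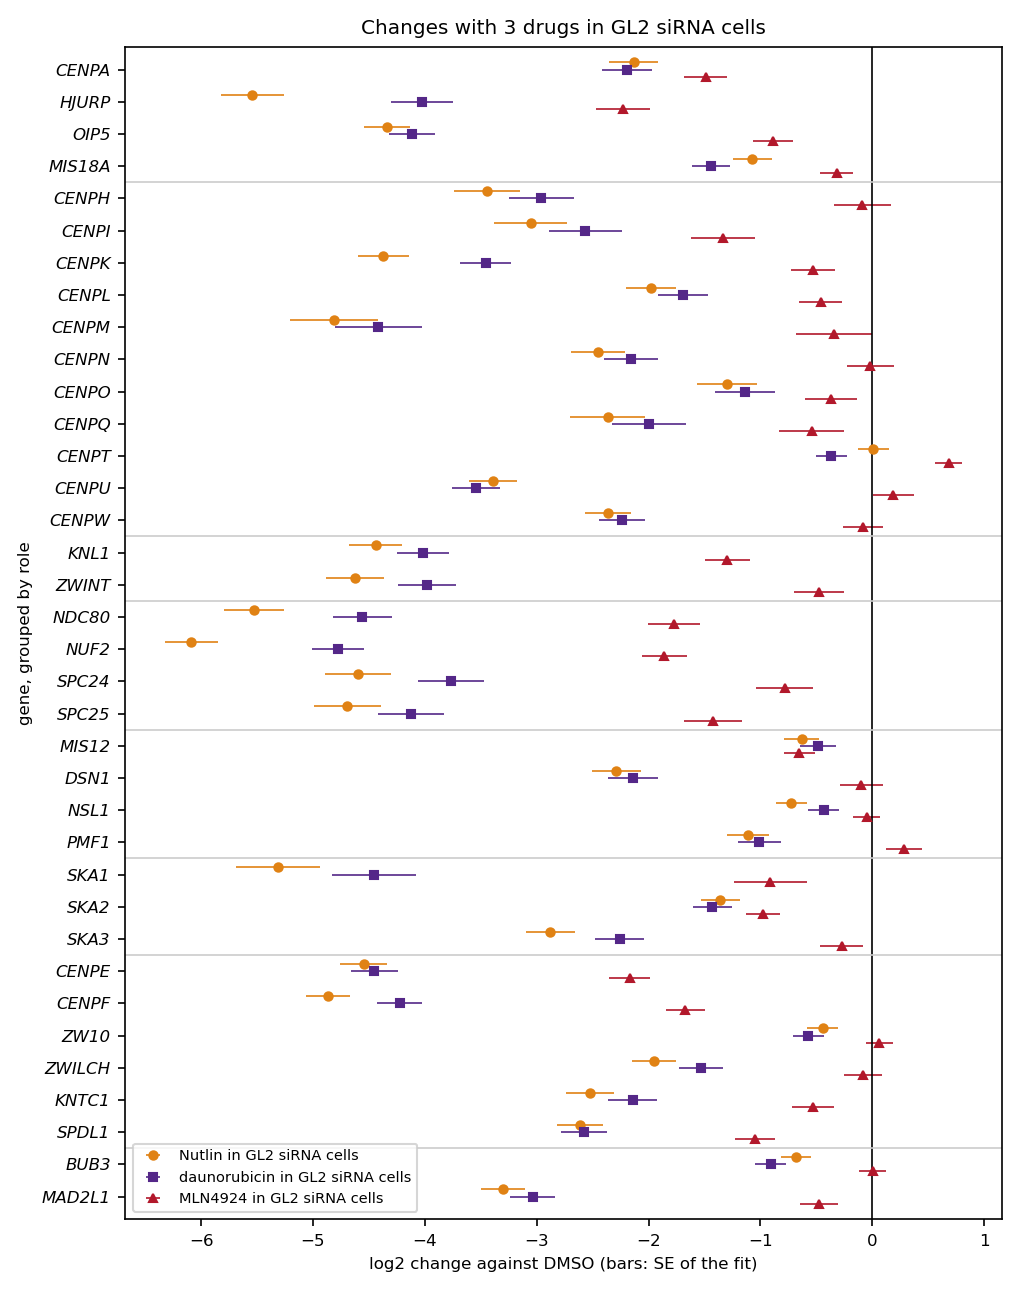
Log2 changes (x axis) of the 36 genes (y axis, grouped by role) in GL2 siRNA cells with Nutlin (circles), daunorubicin (squares) and MLN4924 (triangles) against DMSO, with the SE of the fit as bars. NUF2 lies at -6.09, -4.78 and -1.86 with the 3 drugs, whereas CENPT lies at 0.01, -0.37 and 0.68.

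The MLN4924 falls were compared across siRNAs whose arrays are not shared. Over all genes 4.63%, 7.15% and 7.06% were called lower with MLN4924 in CDT1, BRCA1 and GL2 siRNA cells. The overlap of these calls over all genes was not counted, so the overlaps below cannot be called particular to kinetochore genes. All 10 genes called lower with MLN4924 in CDT1 siRNA cells were among the 15 called lower in GL2 siRNA cells, which is 66.7% of the 15. All 8 called lower in BRCA1 siRNA cells, which were CENPA, HJURP, KNL1, NDC80, NUF2, SKA2, CENPE and CENPF, were among the 10 of CDT1 siRNA cells, or 80% of those. These counts change without the doubted libraries. Then 11 genes were called lower in CDT1 siRNA cells and 11 in GL2 siRNA cells, of which 8 were shared (72.7% of each), with OIP5, SKA1 and SPC24 in the CDT1 list but not in the GL2 list. The 13 of BRCA1 siRNA cells then shared 9 with the 11 of CDT1 siRNA cells (69.2% and 81.8%) and 11 with those of GL2 siRNA cells (84.6% and 100%). The 8 genes named above stood in all 3 lists either way. Of the inner network, CENPI was called lower in GL2 siRNA cells, no gene in CDT1 siRNA cells, and in BRCA1 siRNA cells CENPI and CENPQ only without the doubted libraries. Of the genes with a promoter, 14 were called lower with MLN4924 in GL2 siRNA cells and 15 were not. A CHR match stood in 9 and 7 of these, CCAAT in 9 and 10, and an E2F-like match in 8 and 7. Without the doubted libraries 10 were called lower, with a CHR match in 7, CCAAT in 6 and an E2F-like match in 5. These splits were not tested.

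The test of the difference between siRNAs gave 1 gene for CDT1 against GL2, CENPE, whose MLN4924 change was higher by 1.18 ± 0.28 in CDT1 siRNA cells (limma adjusted p = 0.0269), where 0.521% of all genes were called higher. That call was lost when any of 5 arrays was left out, the library labelled GL2 MLN4924 3 among them, and kept with all 3 doubted libraries out (0.92). For BRCA1 against GL2 no gene of the 36 was called in limma, where 1.86% of all genes were called, and 5 had an unadjusted p under 0.05. Without the 3 doubted libraries none of the 36 was called either, where 624 of all 19775 genes were. The median difference over the 36 was then -0.17, against 0.38 with those libraries in, so its direction depends on them. Leaving out the library labelled BRCA1 MLN4924 1 gave 2 calls.

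Under p53 siRNA the drug changes were less negative. The MLN4924 change was higher in p53 than in GL2 siRNA cells, and called so, for 25 of the 36 genes, where 6.96% of all genes were called higher in this difference, and the median difference was 1.09. HJURP differed by 2.13 ± 0.34, NDC80 by 1.89 ± 0.33, NUF2 by 1.76 ± 0.29, SPC25 by 1.71 ± 0.36 and CENPF by 1.40 ± 0.24. These values rest in part on the library labelled GL2 MLN4924 3 and are given only with it. Without the doubted libraries 23 genes were called and the median difference was 0.81. With single arrays left out between 17 and 27 were called. The Nutlin difference was called for 29 (5.3% of all genes) at a median of 2.54, and the daunorubicin difference for 30 (9.65% of all genes) at a median of 2.48. CENPT was called in none of the 3 differences, at 0.27 ± 0.17, 0.05 ± 0.20 and 0.38 ± 0.20.

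The 14 rises with MLN4924 in p53 siRNA cells depend on the scaling. Without centring 4 genes were called higher (CENPU 0.80, CENPO 0.70, CENPN 0.66 and PMF1 0.59) and 4 lower (CENPA, CENPE, CENPF and SPC24), where 5.33% of all genes were called higher and 17.4% lower, since the median of all genes then sat at -0.22, against 0.20 with centring. Quantile normalization gave 5 higher and 3 lower, where 8.12% of all genes were called higher and 9.87% lower. Under both settings the share of the 36 called lower was under that of all genes. CENPA and CENPE were called lower at both scalings. The 14 were MIS18A, CENPH, CENPK, CENPN, CENPO, CENPQ, CENPT, CENPU, PMF1, SKA1, SKA3, ZWILCH, KNTC1 and MAD2L1.

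**Figure D5:**
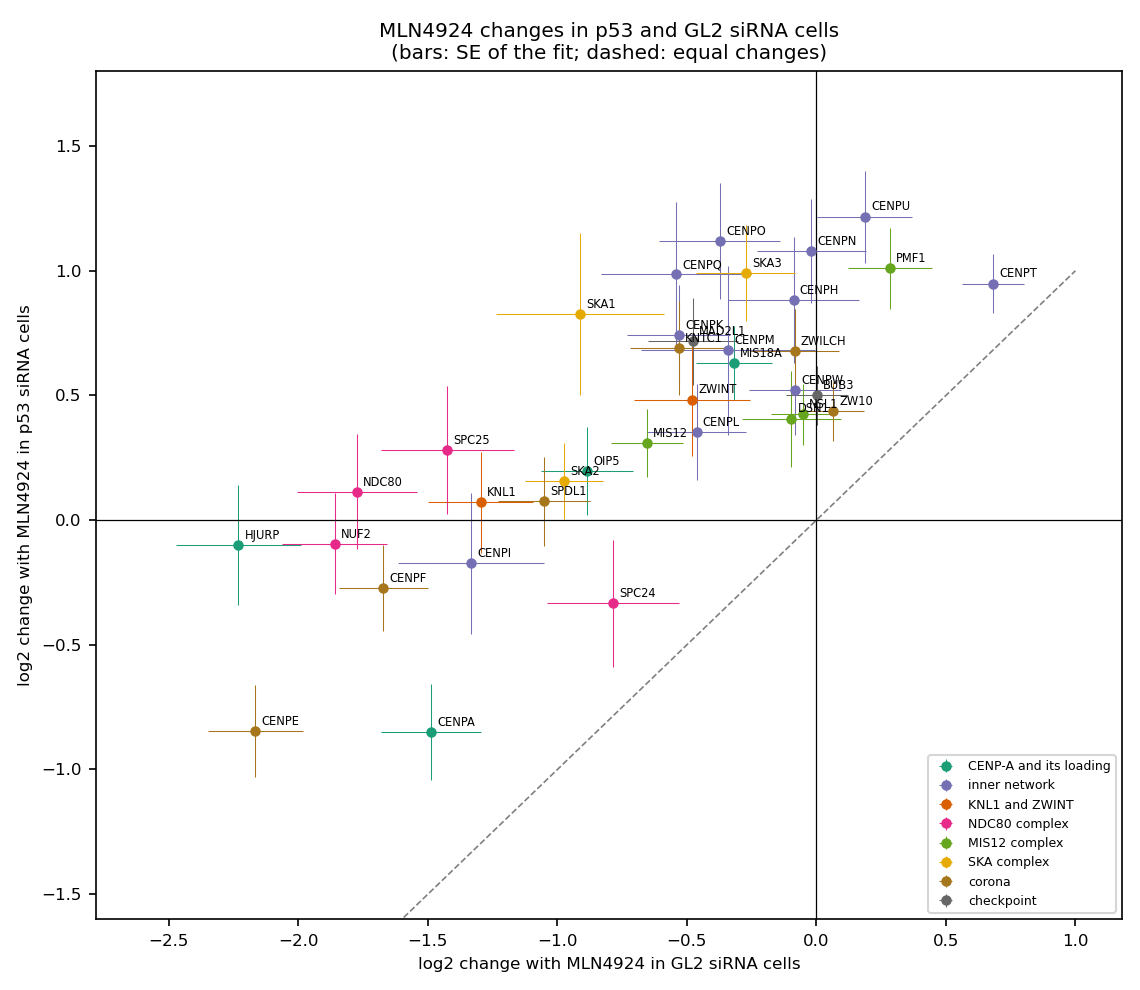
Each of the 36 genes is placed by its log2 change with MLN4924 in GL2 siRNA cells (x axis) and in p53 siRNA cells (y axis), with the SE of both as bars, the dashed line where they are equal and colours for role. All 36 lie above the line, CENPE and CENPA lowest at -0.85 in p53 siRNA cells and CENPU highest at 1.22. Both axes use the centred scale, on which the median of all genes was 0.20 in p53 siRNA cells and 0.08 in GL2 siRNA cells.

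With daunorubicin in p53 siRNA cells the 6 genes called lower were CENPA, HJURP, OIP5, PMF1, CENPE and CENPF, between -0.65 (OIP5) and -1.35 (CENPA). CENPQ and ZWILCH were called higher, where 5.67% of all genes were, so 2 of 36 is about the share of all genes. CENPQ read 3.16, 1.91 and 2.14 with daunorubicin, against 1.71, 1.25 and 1.12 in the first DMSO set. ZWILCH read 4.89, 4.02 and 3.84, against 3.64, 3.61 and 3.55. In both, the first daunorubicin array, with the low 5′ to 3′ ratios, was the highest. The changes were 1.04 ± 0.34 for CENPQ and 0.65 ± 0.20 for ZWILCH. Without that array alone they were 0.66 and 0.33, and neither was called (limma adjusted p = 0.221 and 0.255). Without all 3 doubted libraries the changes were the same and CENPQ was called higher. Without the 3 libraries 11 genes were called lower (6.73% of all genes). PMF1 was no longer among them, and NDC80, NUF2, KNL1, SPDL1, BUB3 and CENPW were newly so. A fit of only the groups compared called none of the 36. Of the 6, 5 (83.3%) were also among the 15 called lower with MLN4924 in GL2 siRNA cells (33.3% of those), a comparison with other arrays. Without the doubted libraries 8 genes were shared by 2 lists of 11 (72.7% of each). Here too the overlap over all genes was not counted.

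The siRNAs alone were compared with GL2 siRNA under DMSO. BRCA1 siRNA called 22 of the 36 lower and none higher, where 4.37% of all genes were called lower, at a median of -0.68. SPC25 read 0.53, 0.58 and 0.43 under BRCA1 siRNA, against 1.62, 1.54 and 1.56 in the first and 2.19, 2.11 and 2.08 in the second GL2 DMSO set, a fall of 1.34 ± 0.26. HJURP read 1.93, 1.45 and 1.74, against 2.81, 2.93 and 2.91 in the first set and 2.80, 2.94 and 2.99 in the second, and fell by 1.19 ± 0.24. All 3 BRCA1 siRNA arrays lay below the 6 GL2 arrays for both genes. The 4 NDC80 complex genes, KNL1 and ZWINT and 7 of 11 inner network genes were among the 22, and no MIS12 complex gene was. The count depends on the arrays and limits used: 13 or 14 genes were called when any BRCA1 DMSO array was left out, 10 with the first DMSO set alone as control, and 4 at a 2-fold limit.

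CDT1 siRNA called 4 lower (3.58% of all genes): HJURP at -0.91 ± 0.24, SPC24 at -0.86 ± 0.25, SPDL1 at -0.75 ± 0.18 and SKA2 at -0.72 ± 0.15. Without CDT1 DMSO 2 the count was 2. Under p53 siRNA none of the 36 was called in limma in either direction, where 3.98% of all genes were called, and 6 had an unadjusted p under 0.05. The p53 siRNA changes under DMSO ran from -0.49 (MIS12) to 0.48 (SPC24).

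Other centromere and kinetochore genes were taken from a list of 27, of which 25 were measured. With Nutlin in GL2 siRNA cells 21 of the 25 were called lower (9.67% of all genes), BIRC5 at -7.17 and CDCA8 at -5.99 (both of the chromosomal passenger complex), and the checkpoint kinase TTK at -5.11. With daunorubicin 21 were called lower (9.93% of all genes). With Nutlin in p53 siRNA cells none was called in limma, with changes between -0.49 and 0.01. Daunorubicin in p53 siRNA cells called 9 lower (6.35% of all genes), or 11 without the doubted libraries, the mitotic kinase PLK1 at -2.91 among them. With MLN4924, 1 was called lower and 7 higher in p53 siRNA cells, against 14 lower and 2 higher in GL2 siRNA cells (13 lower and 4 higher without the doubted libraries). Over all genes 7.6% were called lower and 17.8% higher in p53 siRNA cells, against 7.06% lower and 10.2% higher in GL2 siRNA cells, so the 1 lower of p53 and the 2 higher of GL2 siRNA cells are under the share of all genes. PLK1 was the 1 called lower in p53 siRNA cells, at -1.64, and it changed by -2.72 in GL2 siRNA cells. BRCA1 siRNA called 13 of the 25 lower under DMSO (4.37% of all genes).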

How the data were processed

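RNA of A375 cells was hybridised to 42 Affymetrix arrays, 3 in each of 14 groups. The authors deposited linear signal intensity for 54675 probe sets, which the submitters' processing notes credit to Affymetrix Expression Console (version not given in the sources used here). The trimmed mean (2% off each end) lay between 150.015 and 150.02 on every array, so the intensity values were already scaled. Here 147 values of 0 were raised to 0.1, log2 was taken, the single-symbol probe set with the highest mean stood for each of 19775 genes (41091 probe sets with 1 symbol, 1801 with several, 11721 with none, 62 controls), and the log2 level of the median gene was subtracted on each array. The limma test (3.58.1, R 4.3.3) was fitted over all 14 groups (28 residual degrees of freedom) with Benjamini-Hochberg adjustment over all genes, and it was tested on simulated data. Arrays give no counts, so their number limits the precision, and no low-signal filter was used. The gene list, role groups and tests were chosen with earlier results of these data known. Per-array values are given for the gene with the largest and the gene with the smallest absolute t with Nutlin in GL2 siRNA cells in each role group and for those that rose with a drug. HJURP, CENPA, CENPE, SPC25, NDC80, CENPM and CENPW were chosen after their values were seen. Probe sets of CENPA, CENPH, CENPL, SKA1 and BUB3 are of a kind that can bind related transcripts. Same-numbered arrays were not paired (54 pairs, r from -0.106 to 0.108). Alternatives were the deposited scaling, quantile normalization, other summaries, controls and fold limits, a replicate block, and arrays left out. CENPP was not analysed here.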

Additional observations from a re-analysis of the deposited data

Results flagged for a closer look

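The drug changes of the centromere and kinetochore genes differed between siRNAs by a test of the difference itself. The number of the 36 genes called in that difference was 25 for MLN4924 (p53 less GL2 siRNA), 29 for Nutlin and 30 for daunorubicin, and 1 for MLN4924 (CDT1 less GL2 siRNA). In the same order, 6.96%, 5.3%, 9.65% and 0.521% of all genes were called higher. With the doubted libraries in, the named differences in the MLN4924 change, p53 less GL2 siRNA, were 2.13 for HJURP, 1.89 for NDC80, 1.76 for NUF2, 1.71 for SPC25 and 1.40 for CENPF on the log2 scale. That of CENPE, CDT1 less GL2 siRNA, was 1.18, a call lost when some single arrays were left out, the library labelled GL2 MLN4924 3 among them.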

How the results depend on the processing

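Of 385 recomputed counts of called genes, 349 stayed within 1.5 times the main count and 36 did not. Of 3109 recomputed values of 162 named changes, 2841 kept direction and call, 268 kept direction but lost the call, and none turned direction. The 162 do not hold every change given above. Uncalled changes of ZWINT and SKA2 in GL2 siRNA cells and of BUB3 in p53 siRNA cells gained calls under an alternative and are not among the 162. None of the 162 gained a call, so the lack of turned directions cannot be carried over to uncalled changes. At the deposited scaling MLN4924 in p53 siRNA cells called 8 genes instead of 16, as did quantile normalization. At a 2-fold limit the counts with MLN4924 were 4 in p53, 5 in BRCA1 and 10 in GL2 siRNA cells, and they were 4 for daunorubicin in p53 siRNA cells, 0 for CDT1 siRNA, 4 for BRCA1 siRNA and 2 for daunorubicin less Nutlin. A fit of only the groups compared called 5 with MLN4924 in BRCA1 siRNA cells, 0 with daunorubicin in p53 siRNA cells, 3 for CDT1 less GL2 siRNA and 0 for daunorubicin less Nutlin, with fewer arrays to estimate the spread. The mean of probe sets gave 2 for CDT1 siRNA, 13 for BRCA1 siRNA and 0 for CDT1 less GL2 siRNA. The other DMSO set as control gave 2 with Nutlin in p53 siRNA cells, and the first set alone gave 10 for BRCA1 siRNA. For BRCA1 less GL2 siRNA quantile normalization gave 1 and a pseudocount of 16 gave 2. Without the doubted libraries 7 were called for daunorubicin less Nutlin. Except where the construction shows it, the cause was not tested.

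With single arrays left out, the counts with MLN4924 ranged from 14 to 16 (p53), 9 to 10 (CDT1), 8 to 12 (BRCA1) and 12 to 21 (GL2 siRNA cells). They ranged from 0 to 0 and 34 to 34 for Nutlin in p53 and GL2 siRNA cells, and from 4 to 9 and 32 to 33 for daunorubicin. The 4 came without p53 DMSO first set 2 or 3. The siRNA counts ranged from 0 to 0, 2 to 5 and 13 to 21 for p53, CDT1 and BRCA1 siRNA. For the differences p53 less GL2 they ranged from 17 to 27 (MLN4924), 29 to 30 (Nutlin) and 29 to 30 (daunorubicin), and elsewhere from 0 to 1 (CDT1 less GL2), 0 to 2 (BRCA1 less GL2), 30 to 35 (MLN4924 less Nutlin) and 2 to 4 (daunorubicin less Nutlin). A replicate block gave 15 with MLN4924 in p53 siRNA cells, 21 for BRCA1 siRNA, 32 for MLN4924 less Nutlin and 3 for daunorubicin less Nutlin, and the main count elsewhere. The 54 pairs of same-numbered arrays had r from -0.106 to 0.108, with 1 over 0.1, so the numbers are only a number.

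With MLN4924 in p53 siRNA cells the median over all genes was 0.20 with centring, against -0.22 as deposited, and the split of called genes was 3529 higher and 1503 lower, against 1054 and 3450. With MLN4924 in GL2 siRNA cells the medians were 0.08 and -0.10 and the splits 2010 and 1397 against 1125 and 2152. Of 32 further probe sets of the genes, 31 had the sign of the main one with Nutlin in GL2 siRNA cells. Their sizes differed both ways. Smaller falls came from SPC24 (-1.38 against -4.60 for the main one), CENPU (-2.03 and -2.01 against -3.39) and KNL1 (-1.69, -4.13 and -1.23 against -4.44). MIS18A and NSL1 each had a dim one with a larger fall (-3.87 and -2.77). Dim signals limit the falls with Nutlin and daunorubicin, since 9 and 7 genes lay under the median signal.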
